A study of Homo sapiens with 24 samples.

Results

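The comparison described here set HEK cells that received radiation and no ligand against untreated HEK cells. HEK is an established human embryonic kidney cell line. Its arrays were chosen by their titles, which gave 12 of the 24 arrays of the series, 6 irradiated and 6 untreated. The series asks how a DNA minor groove binding ligand alters the response to radiation. Its other groups received 50 uM ligand, or the same ligand 1 h before 2 Gy. All cells were plated 24 h before treatment. The irradiated cells compared here received 2 Gy, the untreated cells received neither agent, and incubation went on for 4 h before RNA was prepared. Each group has replicate numbers 1, 2 and 3. Each number has an array of letter A and an array of letter B, which hold different probes of the same sample, 19700 on each and 39400 in all. The 12 arrays are therefore 3 pairs of samples, and each letter was analysed alone. Nothing in the labels says that the numbers are separate cultures, so a p-value here reflects no more than how these samples varied, possibly for technical reasons. RNA came from whole cultures, so a change in the mix of cells and a change in RNA per cell cannot be told apart.

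Ionizing radiation breaks DNA. In many cells the kinase ATM responds to the breaks and the transcription factor p53 is stabilised, which raises genes such as CDKN1A, an inhibitor of cyclin-dependent kinases, and MDM2, which marks p53 for degradation. HEK lines made with adenovirus DNA carry E1 proteins that bind p53, and the response of p53 target genes can be blunted in them. The labels do not say which HEK line was used. The 39400 probe identifiers are not paired with gene names in the files, and 0 of them matched the gene table used here. Levels of p53 targets, repair genes, cell cycle genes and kidney markers could therefore not be read, and the probes are given by identifier.

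The arrays did not have equal signal. On letter A the median probe intensity of number 1 was 677 untreated and 625 after radiation. The medians of number 2 were 654 and 250, and those of number 3 were 219 and 34.5. On letter B they were 511 and 397 in number 1, 531 and 179 in number 2, and 202 and 213 in number 3. The irradiated array was thus the dimmer of its pair in 5 of 6 pairs. The irradiated array of number 3, letter A, was the dimmest, and 100% of its values fell on steps of 0.5, compared with at most 38.9% on any other array. Log2 intensities were quantile normalized within each letter, which gives every array of a letter the same distribution. Differences below are radiation minus untreated on that scale, where 1 unit is a 2-fold change. Before this step the median difference over probes was -0.16, -1.41 and -2.63 on letter A and -0.36, -1.57 and 0.08 on letter B, for numbers 1, 2 and 3. Changes are reported relative to that shift.

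Within pairs of the same number, number 2 stood apart in the ranking of its probes. The untreated and irradiated arrays of number 2 correlated over probes (Spearman) at 0.720 for letter A and 0.766 for letter B. The same correlation was 0.933 and 0.823 in number 1, and 0.858 and 0.930 in number 3. The irradiated array of number 2 was closer to the untreated array of number 1 than to its own, at 0.848 on letter A and 0.816 on letter B. The ligand and radiation array of number 2 also ranked closer to untreated number 1 (0.836 and 0.777) than to untreated number 2 (0.715 and 0.731). Its 2 arrays without radiation ranked most alike, at 0.931 and 0.919, followed by its 2 irradiated arrays, at 0.879 and 0.848. The arrays of number 2 thus fell into those with and those without radiation. The labels do not say whether they were also processed apart, so in number 2 a batch of that kind and radiation cannot be told apart, and a mix-up of labels was not tested. Between numbers, number 3 was the furthest. Its untreated array correlated with that of number 1 at 0.51 on letter A and 0.43 on letter B. With untreated number 2 it correlated at 0.42 and 0.41. The untreated arrays of numbers 1 and 2 correlated at 0.66 and 0.77. All these correlations are across probes, which are not independent replicates, and describe the arrays.

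**Figure D1:**
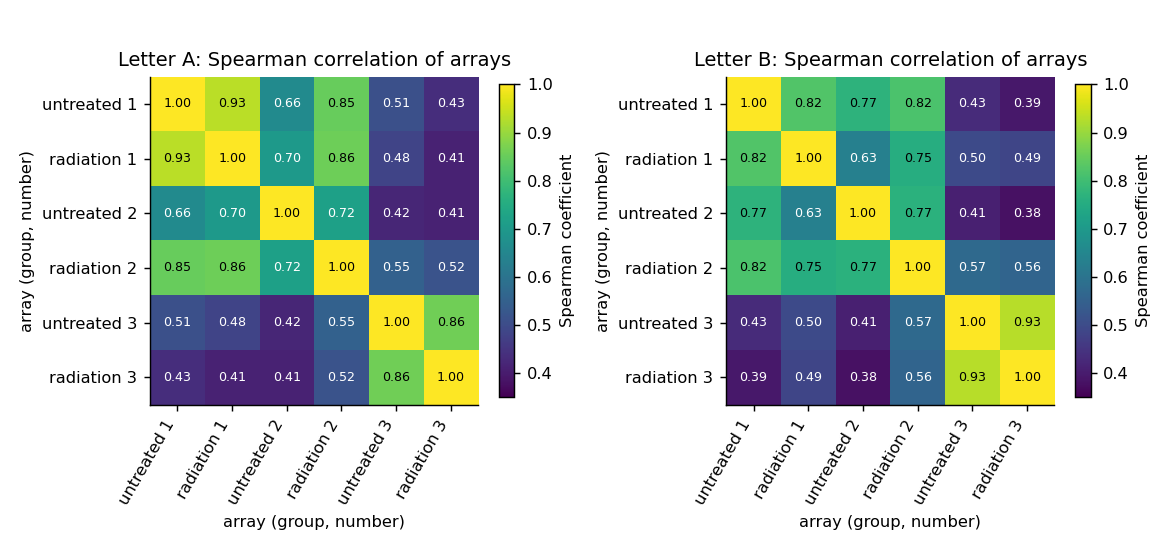
Spearman correlation over probes between every pair of the 12 compared arrays, letter A and letter B in separate panels. The untreated and irradiated arrays of number 2 correlate at 0.720 (A) and 0.766 (B), the lowest of the same-number pairs on each letter.

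No probe passed the test. With limma, 0 of 39400 probes (0%) had an adjusted p under 0.05, and the lowest adjusted p was 0.779. At an unadjusted p under 0.05, 2333 probes were counted (5.92%), 1066 higher and 1267 lower after radiation. Letter A held 587 of them and letter B 1746. The count was 301 (0.764%) when the replicate number was left out as a block. A share of 0.05 passes this threshold when nothing differs. The mean difference lay beyond 2-fold for 791 probes (2.01%), 446 higher and 345 lower, a count with no test. Letter A gave 520 of these, against 271 on letter B. The direction of change was the same in all 3 numbers for 27.0% of probes, 20.2% on letter A and 33.8% on letter B. If the 3 signs were independent and equally likely, a share of 0.25 would have the same sign. The median standard error of a difference was 0.37 without the replicate block. With the block it was 0.22, which corresponds to a 95% interval of 0.49 on either side. A change smaller than that could not be told from 0 for a typical probe, even without adjustment. The adjusted test asks for more, and none of the 791 probes beyond 2-fold passed it. An exact sign-flip test on 3 pairs cannot give a two-sided p below 0.25.

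The spread of differences was widest in number 2. Over both letters the standard deviation of the difference across probes was 0.45 in number 1, 0.83 in number 2 and 0.48 in number 3. Probes beyond 2-fold numbered 1334 in number 1 (3.39%), 4861 in number 2 (12.3%) and 1570 in number 3 (3.99%). Beyond 4-fold, the same order was 214, 1431 and 203. On letter A, number 2 had 1694 probes higher and 1287 lower beyond 2-fold, and on letter B 919 higher and 961 lower. Number 1 had more lower than higher probes, with 862 lower and 472 higher over both letters. Number 3 had 918 lower and 652 higher. Number 2 thus had the most probes beyond 2-fold on both letters, with more higher than lower on letter A and slightly fewer on letter B.

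**Figure D2:**
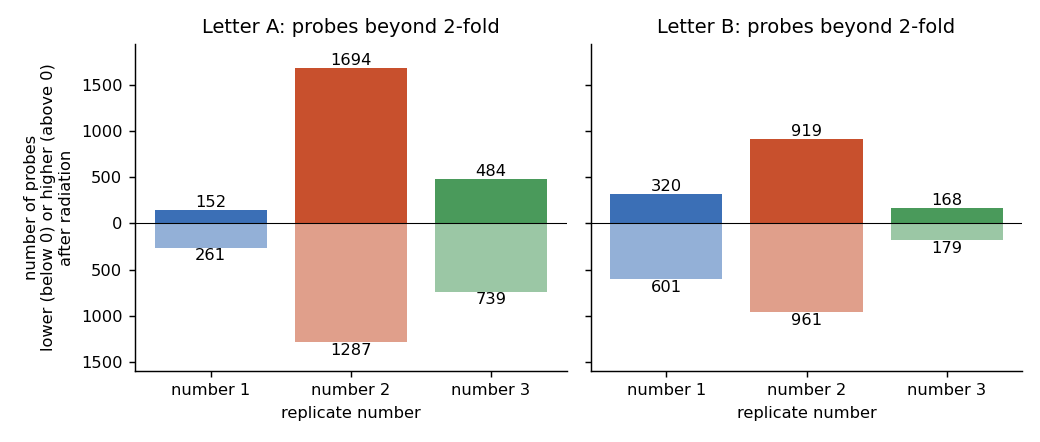
Number of probes whose log2 difference, radiation minus untreated, lies beyond 2-fold, higher and lower, for each replicate number and letter. Number 2 has the tallest bars on both letters, 2981 probes on letter A and 1880 on letter B.

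With number 2 set apart, the changes of numbers 1 and 3 shared little. Their differences had a Spearman correlation of 0.0843 over probes, 0.0344 on letter A and 0.145 on letter B. Among probes beyond 2-fold in both numbers 1 and 3, 27 went the same way and 27 opposite ways. The 27 that went the same way are 2.03% of the probes beyond 2-fold in number 1 and 1.72% of those in number 3. The mean of these 2 numbers lay beyond 2-fold for 532 probes, 249 higher and 283 lower. The fit without number 2 gave 0 of 39297 probes at an adjusted p under 0.05. It gave 1976 (5.03%) at an unadjusted p under 0.05, and 529 beyond 2-fold. Between numbers 1 and 2 the correlation was 0.0177, with 113 shared probes going the same way and 98 opposite ways. Its sign differed by letter, -0.178 on A and 0.182 on B. Between numbers 2 and 3 it was -0.0172, with 138 going the same way and 259 opposite ways.

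Most of the 791 probes beyond 2-fold on the mean were also beyond 2-fold in number 2. Of these probes, 651 (82.3%) were beyond 2-fold in number 2 by itself, 150 (19.0%) in number 1 and 164 (20.7%) in number 3. Number 2 held the widest difference for 610 of them (77.1%), and 341 had the same sign in all 3 numbers. The mean includes number 2, so these shares describe how the mean was formed.

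The differences of number 2 also resembled a contrast that holds no irradiated cells. That contrast is the untreated array of another number minus the ligand array of number 2, and it shares no array with the radiation difference of number 2. With the untreated array of number 1, the Spearman correlation over probes was 0.580 on letter A and 0.329 on letter B. With the untreated array of number 3 it was 0.437 and 0.464. The same construction for number 1 gave 0.220 and -0.0811 on letter A and -0.115 and 0.236 on letter B. For number 3 it lay between -0.113 and 0.0358. Both contrasts subtract an unirradiated array of number 2, and those 2 arrays ranked alike, at 0.931 on letter A and 0.919 on letter B. A positive correlation can arise from that shared term alone, so the values describe the arrays. The part of differences between numbers in the radiation difference was not tested.

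Signal level moved with the size of change in number 2. Probes were split into 5 bins of equal size by their mean level over the arrays of a letter. In number 2 the brightest bin had 37.1% of its probes beyond 2-fold on letter A and 19.7% on letter B. The dimmest bin had 7.36% and 8.93%. Number 1 ran the other way, with 0.939% of the brightest and 3.86% of the dimmest bin on letter A, and 3.50% and 7.87% on letter B. In number 3 the brightest and dimmest bins had 11.1% and 8.32% on letter A, and 2.72% and 4.04% on letter B. Large changes in number 2 were therefore most common among abundant signals.

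**Figure D3:**
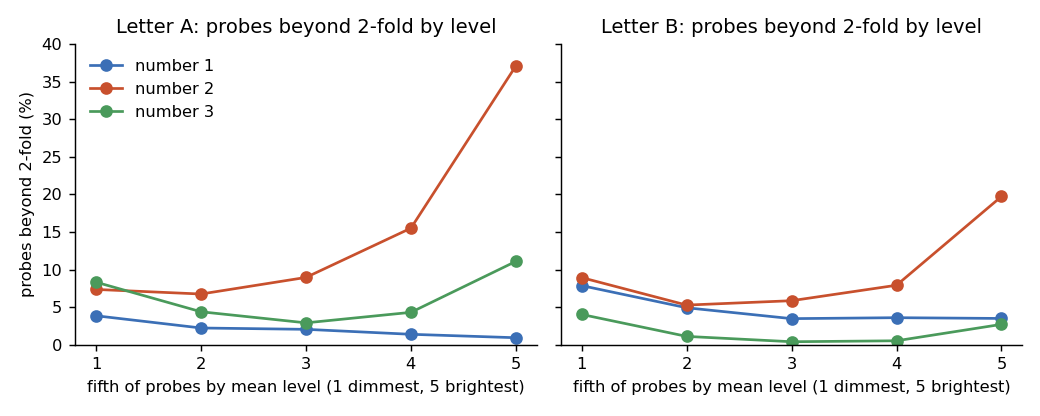
Percentage of probes beyond 2-fold in each of 5 bins of mean level, dimmest to brightest, for the 3 numbers on each letter. In number 2 the brightest bin reaches 37.1% on letter A and 19.7% on letter B.

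Place in the spot list moved with the difference in number 1 of letter B. Spots were divided into 48 runs of 420 in the order listed. That spots of a run are neighbours on the array was assumed, since no coordinates were used. Differences between runs made up 43.3% of the variation of the number 1 difference on letter B and the run medians spanned 1.36. The share was 16.6% in number 3 of letter A and between 4.55% and 6.54% in the other 4 pairs. Spots of number 3 were placed by identifier in the run order of numbers 1 and 2, on the assumption that the print layout was the same. With each run centred on its own median, the probes beyond 2-fold in number 1 of letter B went from 921 to 468. The correlation between numbers 1 and 2 on letter B then went from 0.182 to -0.0204. On letter A it went from -0.178 to -0.168, and over both letters from 0.0177 to -0.104. The correlation between numbers 1 and 3 over both letters was 0.0403. The letter B count at an unadjusted p under 0.05 went from 1746 (8.86%) to 1021 (5.18%) with runs centred, and that of letter A from 587 (2.98%) to 757 (3.84%). The share of letter B probes with the same sign in all 3 numbers went from 33.8% to 26.8%. That of letter A went from 20.2% to 21.1%, and that over both letters from 27.0% to 23.9%. The larger count on letter B was thus smaller once runs were centred, and still above that of letter A.

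**Figure D4:**
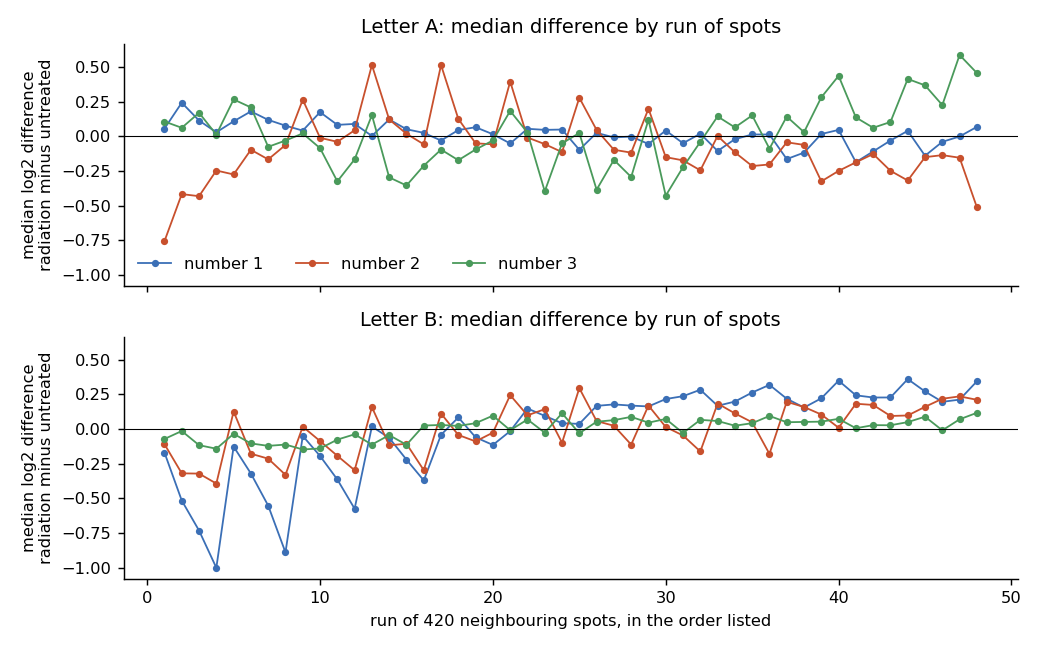
Median log2 difference, radiation minus untreated, of each of the 48 runs of neighbouring spots, in spot order, for each number and letter. The medians of number 1 on letter B span 1.36, the widest of the 6 pairs.

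Control sequences printed on both letters gave a second reading of the same samples in numbers 1 and 2. The 10 human control sequences had differences, less the probe median, of -1.62 to 0.15 in number 1 and -2.45 to 2.73 in number 2. The readings of a sequence on letters A and B differed by a median of 0.10 in number 2 (at most 1.02), and 4 of 10 lay beyond 2-fold in the same direction on both letters. In number 1 the readings differed by a median of 0.13 (at most 1.04), and that count was 0 of 10. The 13 plant control sequences lay between -0.60 and 0.51, with 0 beyond 2-fold. The wide differences of number 2 went both ways. The sequence obshuman10K#11008 differed by 2.73 on letter A and 2.59 on letter B, and obshuman10K#11003 by -2.45 and -2.26. In number 1 the former differed by -0.48 and -0.60, and the latter by -0.10 and -0.03. The wide differences of number 2 were thus also seen in human control sequences on both letters, and plant sequences stayed within 2-fold.

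At an unadjusted p under 0.01, 314 probes were counted, 110 higher and 204 lower. All of them had the same sign in all 3 numbers, so that second condition removed none. Over both letters they are 0.797% of all probes, fewer than the 1% that this threshold passes when nothing differs. Letter B held 271 of them (86.3%) among its 19700 probes, which is above that share. Letter A held 43 among its 19700 probes, which is below it. Beyond 2-fold were 32 of the 314, 13 higher and 19 lower. With runs centred, all 314 kept their direction and 86 still met both conditions, 25 of the 43 on letter A and 61 of the 271 on letter B. All had an adjusted p of at least 0.779, and the widest in each direction are described to show what the values look like.

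The probe obshum40K:B#32314 had normalized log2 levels of 11.02, 8.14 and 12.43 in the untreated arrays of numbers 1, 2 and 3, and 12.35, 11.88 and 13.25 after radiation. The irradiated array was the higher in each pair, by 3.74 in number 2 and by 1.33 and 0.82 in numbers 1 and 3, and the groups overlap. Its mean was 10.53 ± 2.19 untreated and 12.49 ± 0.69 after radiation (SD, n = 3), a difference of 1.96 with SE 0.56 and a limma adjusted p of 0.779. Without number 2 the difference was 1.07, and on deposited values it was 1.03. In number 3 the deposited intensity went from 2045 to 2253, while the array median went from 202 to 213. The difference of 0.82 there thus rests largely on the scaling.

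For obshum40K:A#05612 the untreated levels were 9.03, 7.36 and 10.55 and the irradiated levels 9.23, 10.25 and 13.33. Number 1 barely differed, at 0.20, while numbers 2 and 3 differed by 2.89 and 2.78, and the groups overlap. The difference of means was 1.96 with SE 0.60 and a limma adjusted p of 0.779. In number 3 the deposited intensity went from 1116 to 812, so the higher normalized level there rests on the scaling of an array that was dim throughout. The mean difference was 0.19 on deposited values, 1.30 on the authors' value tables and 1.26 with array weights.

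Levels of obshum40K:A#08486 were 10.49, 12.43 and 10.98 untreated, and 9.39, 9.95 and 8.59 after radiation. All 3 irradiated arrays lay below all 3 untreated arrays, as they did for 290 of 19693 probes on letter A. Over both letters, 3.51% of probes had no overlap in either direction. The differences of obshum40K:A#08486 within pairs were -1.10, -2.48 and -2.38. Its mean was 11.30 ± 1.01 untreated and 9.31 ± 0.68 after radiation (SD, n = 3), a difference of -1.99 with SE 0.45 and a limma adjusted p of 0.779. Without number 2 the difference was -1.74. On deposited values it was -3.36, which includes the dimming of irradiated letter A arrays. The median difference over probes there was -0.16, -1.41 and -2.63 in numbers 1, 2 and 3. In number 3 the deposited intensity went from 1444 to 43.5, on an irradiated array with a median of 34.5. The probe obshum40K:A#13950, named after its values were seen, is the only other probe beyond 2-fold in the same direction in every number. It was higher by 1.39, 1.37 and 1.12, with a mean difference of 1.29, SE 0.24 and a limma adjusted p of 0.779. Its deposited intensity was higher after radiation in number 1 only (1140 to 2806), and went from 833 to 736 in number 2 and from 103 to 42.0 in number 3, so the latter differences rest on the scaling.

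The probe obshum40K:B#10379 read 9.34, 9.83 and 7.10 untreated, and 9.09, 8.56 and 4.22 after radiation. Number 3 was lower by 2.87, number 2 by 1.27 and number 1 by 0.25. Its difference of means was -1.46 with SE 0.41 and a limma adjusted p of 0.779, and -0.76 without number 3. It depended on the scaling, at -0.29 on the authors' value tables, -0.90 with median scaling, -0.90 with cyclic loess and -0.95 with an offset of 50. The widest gap came from an array pair with low intensities, 81.5 untreated and 37.5 irradiated.

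**Figure D5:**
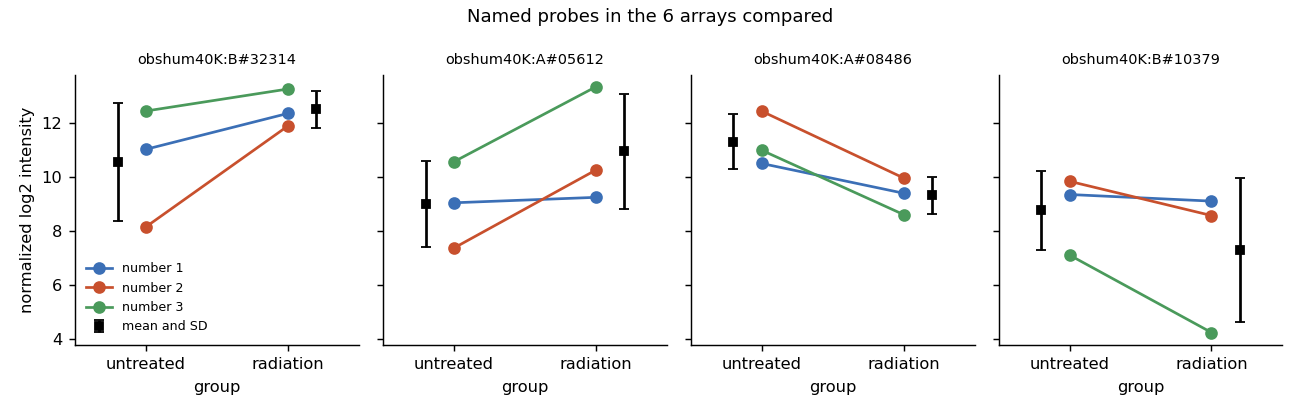
Normalized log2 level of the 4 probes chosen by rule in the untreated and irradiated arrays, with lines joining arrays of the same number. The irradiated values of obshum40K:A#08486 all lie below its untreated values, and the groups of the other probes overlap. Over all probes, 3.51% had no overlap in either direction.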

How the data were processed

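Per the labels, RNA from TriReagent and RNeasy steps went through T7 amplification and Cy3 labelling for single-colour arrays. The authors deposited a linear spot intensity per probe and array; the sources used here do not name the scanner, background step or scaling. The authors also deposited a value table of log2 values. Over all 12 samples, letters A and B stacked, 99.8% of its 39280 ranks lay within 0.05 log2 units across samples, so letters were scaled together there. Intensities were put on the log2 scale with no offset or background correction and quantile normalized within letter. Values not detected were missing. Limma 3.58.1 in R 4.3.3 (lmFit, eBayes) was fitted to the 12 arrays of a letter with replicate number as a block, and p-values were adjusted by Benjamini-Hochberg over both letters. The block was set because the comparison is defined as 3 pairs by number. Same-numbered untreated and irradiated arrays deviated from their group means together (Pearson 0.221 to 0.809, 6 pairs). In number 2 this was weak: on letter A its irradiated array went more with untreated number 1 (0.376) than with its own (0.221), and on letter B about equally (0.348 and 0.379). Array number limits the precision. Named probes are the 2 higher and 2 lower with the widest difference at an unadjusted p under 0.01 and the same sign in all numbers. Members, lists and tests were chosen with earlier results of these data known. Sequences and gene lists were not analysed here, since probes have no gene name.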

Additional observations from a re-analysis of the deposited data

Results flagged for a closer look

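Empty spots, which carry no probe and are listed for numbers 1 and 2, had a higher ratio to the probe median after radiation than in the untreated arrays, by a geometric mean of 1.394 times over 4 pairs. The ratio was 1.30 and 1.05 in number 1, letters A and B, and 1.63 and 1.68 in number 2. The plant control sequences had a ratio of 1.03 and the human control sequences 0.799. This was picked out because it is signal outside the probes compared whose ratio to the probe median was above that of the untreated arrays. The empty spots themselves were not brighter in 3 of 4 pairs. Their median intensity was higher after radiation in number 1 on letter A, and went from 27.2 to 17.0 in number 2. On letter B it went from 29.7 to 24.2 in number 1 and from 29.7 to 16.8 in number 2. In number 2, the pair with the widest differences, empty spots stood at 4.16% and 5.59% of the probe median untreated, and at 6.79% and 9.41% after radiation. The part of background in those differences was not tested.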

How the results depend on the processing

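The count of 0 probes at an adjusted p under 0.05 held in 25 of 27 alternatives. It was 138, all lower, on values as deposited, 135 of them on letter A and 3 on letter B. There the irradiated array was the dimmer of every pair except number 3 of letter B. The count was 1 without untreated replicate 3, which is obshum40K:B#42669 (difference 2.85, adjusted p = 0.0250 by limma, against 1.89 and 0.779 with all arrays). The range over settings leaving out samples was 0 to 1. The unadjusted count of 2333 became 301 with no replicate block, 1445 and 128 in fits of the 6 compared arrays with and without the replicate block, 16299 on deposited values (18 higher and 16281 lower), 3689 with array weights, 365 with runs centred and no replicate block, and 4250 on the authors' value tables (2954 higher and 1296 lower). It ranged from 107 (without replicate 2, no replicate block) to 2376 when samples were left out, with 1531 without number 1 and 1140 without untreated replicate 2. The 791 probes beyond 2-fold became 20622 on deposited values (33 higher and 20589 lower), 492 with an offset of 50, 406 with array weights and 1284 on the authors' tables. Leaving out samples gave 412 (without untreated replicate 2) to 1821 (without number 3), with 512 without the irradiated array of number 2, 1768 without number 1, and 474 without number 2 after runs were centred. Leaving out 1 array of number 1 or 3 gave 1394 to 1467. The share with the same sign in all numbers was 49.7% on deposited values. Of 108 refits of the named probes, 107 kept direction and side of the threshold, and obshum40K:A#08486 passed on deposited values at -3.36. Much of that count was fixed in advance. The probes were chosen for the same sign in all numbers, so leaving out a number could not reverse them. Settings that changed only the block, the prior, the filter or the adjustment left the difference as it was. The 2 settings that combine leaving out number 2 with another change were chosen after seeing the data. The cause of these changes was not tested.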

Other observations

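On the authors' value tables, which scale the letters of a sample together, the unadjusted calls split by letter. Of 1329 calls on letter A, 1291 were lower, and of 2921 on letter B, 2916 were higher. In number 3 the median difference there was -0.81 on letter A and 0.83 on letter B, and the irradiated medians were 7.69 and 8.93 against 8.38 and 8.26 untreated. In numbers 1 and 2 the medians of a letter differed by less than 0.1 between the groups.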
